A study of Arabidopsis thaliana with 6 samples.

Results

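Transcript counts of the histone genes were examined in sorted leaf cells of 3 transgenic Arabidopsis thaliana lines, 2 libraries per line. The 43 genes were chosen by a list of loci, not by a threshold on their values, as the annotated genes for histones H4 (8 loci), H3.1 (5), H2A (4), H2B (10), H3.3 (3), CENH3 (1), H2A.X (2), H2A.W (3), H2A.Z (3), a divergent H2B (1) and H1 (3). They are 43 of the 33602 loci counted. The lines are called here by the construct they carried, as labelled: myrBRX (myrBRXp:myrBRX-YFP), BRXL2 (BRXL2p:BRXL2-YFP) and BRX (BRXp:BRX-YFP), all in the Columbia ecotype. BREVIS RADIX (BRX) and BRXL2 are related proteins known from cell polarity and phloem development. In all 3 lines true leaves were taken 9 days post germination, after 2 days in the cold and growth at 22 °C with 16 h light and 8 h dark, and about 20000 cells were sorted per sample. The series describes the sorted cells as stomatal lineage ground cells, the larger daughters of asymmetric divisions in the leaf epidermis (the gate of the sort is not stated in these sources). No untransformed plants were analysed here, so every comparison is between transgenic lines.

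Nucleosomes wrap DNA around a core of H2A, H2B, H3 and H4, and the linker histone H1 binds the DNA between them. The replication-dependent histones H4, H3.1, H2A and H2B are known to be made mainly in S phase, when new DNA has to be packed, and they are called S phase histones here (27 genes). Variant histones replace them at particular places or outside S phase: H3.3 in transcribed genes, CENH3 at centromeres, H2A.Z near gene starts, H2A.W in heterochromatin, and H2A.X, which is phosphorylated at DNA breaks (13 genes, with the divergent H2B). H4 has no variant class in Arabidopsis and serves both. In dividing tissue, high S phase histone transcripts are a common sign of DNA replication, while H3.3 transcripts are found in cycling and resting cells alike.

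The libraries held 25817906 to 42113178 counts, of which the histone genes took 15810 to 77335 (0.0445 to 0.188%). Levels are given in CPM, counts per 1000000 of the effective library size after TMM scaling. A library with 0 counts of a gene allows up to 3 counts of it, or 0.0638 to 0.0992 CPM. BRX transcript, native and transgenic counted together, was at 32.4 and 72.7 CPM in the myrBRX libraries, 22.7 and 31.9 CPM in BRXL2 and 6.10 and 11.7 CPM in the libraries labelled BRX, so it was lowest under the label that names it. BRXL2 transcript was at 21.5 and 12.6, 1570 and 1378, and 150 and 95.5 CPM in the same order of lines. Names of lines below therefore mean labels. Organellar loci took 0.558 to 5.34% of the counts and the pseudogene AT1G79245 took 4.82 to 19.7%, the highest share being in BRX library 2. The 2 libraries of a line differed far beyond counting noise, with a chi-square per locus of 640 to 946, and log2 CPM correlated across loci at 0.911 in myrBRX, 0.802 in BRXL2 and 0.785 in BRX. Nothing in the labels says that they came from separate cultures, so p-values measure the spread between these libraries only, which may be technical. In bulk samples, fewer cells of a type and less RNA per cell cannot be told apart.

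Many plant histone genes carry a short shared element upstream, the octamer CGCGGATC, known from histone promoters of several plants. In the 250 bases before the annotated gene start, on either strand, CGCGGATC was found in 7 of 27 S phase histone genes (25.9%), in 2 of 13 variant genes (15.4%) and in 1 of 3 H1 genes, against 37 of all 27443 protein-coding genes (0.135%). The histones thus made up 10 of the 37 genes with a match. By family, the octamer was in 3 of 5 H3.1, 2 of 4 H2A, 2 of 8 H4 and 0 of 10 H2B genes, and among the other families in HTR5 (H3.3), HTA6 (H2A.W) and H1.1. The hexamer CCGTCG was in 6 of 27 S phase, 2 of 13 variant and 1 of 3 H1 genes, against 2.85% of all genes. An E2F motif, searched as TTTCCCGC, TTTGGCGC, TTTCGCGC or TTTGCCGC on both strands, was in 3 of 27 S phase and 0 of 13 variant genes, against 1.41% of all. Of these 3, 2 were the H4 genes AT3G45930 and AT3G46320, which share exon sequence and both have the match at -237. They may thus not count as separate cases. The nonamer CATCCAACG was in 0 of 43, against 0.149% of all genes. A match is a run of letters, not a shown binding site, and the search says nothing of genes whose element lies outside the window.

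The 60-base stretches below show the octamer, in capitals, in the 4 S phase genes of highest mean level that hold it, in the 2 variant genes and in H1.1. CGCGGATC and GATCCGCG are the same octamer on the 2 strands. Each is written 5′ to 3′ along the strand of its gene, from the TAIR10.1 assembly of RefSeq, by locus name, since the count tables carry no coordinates.
HTR1 (H3.1, AT5G65360), chr5:26120674-26120733, minus strand: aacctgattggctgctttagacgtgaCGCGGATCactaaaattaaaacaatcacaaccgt
HTR9 (H3.1, AT5G10400), chr5:3271044-3271103, minus strand: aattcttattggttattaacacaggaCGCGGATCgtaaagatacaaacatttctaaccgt
AT5G59690 (H4), chr5:24051377-24051436, plus strand: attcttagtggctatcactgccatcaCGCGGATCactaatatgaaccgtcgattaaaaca
HTA13 (H2A, AT3G20670), chr3:7229296-7229355, plus strand: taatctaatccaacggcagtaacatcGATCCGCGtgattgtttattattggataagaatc
HTR5 (H3.3, AT4G40040), chr4:18558946-18559005, minus strand: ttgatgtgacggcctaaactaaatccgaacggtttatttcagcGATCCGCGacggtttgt
HTA6 (H2A.W, AT5G59870), chr5:24116303-24116362, minus strand: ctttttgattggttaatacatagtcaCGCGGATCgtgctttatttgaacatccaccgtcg
H1.1 (H1, AT1G06760), chr1:2077768-2077827, minus strand: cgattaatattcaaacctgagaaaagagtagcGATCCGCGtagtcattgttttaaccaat

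**Figure D1:**
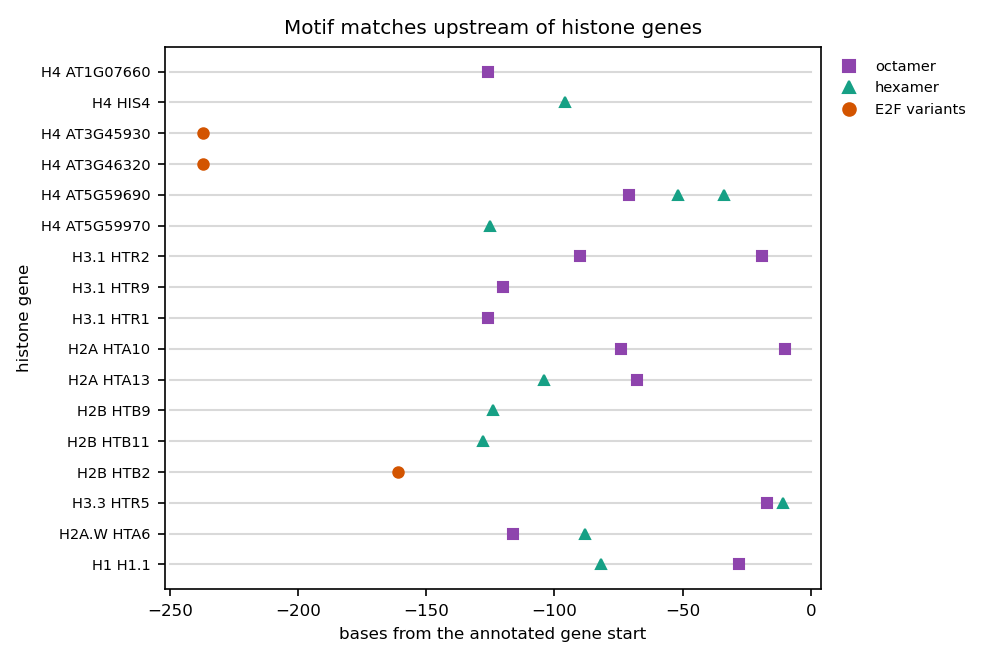
Positions of the octamer, the hexamer and the E2F variants in the 250 bases upstream of the annotated start of the 17 histone genes with a match, in bases from the start (x axis), 1 line per gene. The octamer lies at -126 or nearer to the start in all 10 genes that hold it, and at -17 in HTR5 and -28 in H1.1.

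The octamer genes did not share 1 level or 1 pattern. Per kilobase of exon, which allows levels of different genes to be compared, HTR5 was the highest histone gene, with a mean over the 6 libraries of 146 CPM per kb. HTB11 (144), H1.1 (130), HTR8 (100.2), HTR1 (93.5) and HTR9 (83.8 CPM per kb) came next, and HTB11 and HTR9 owed their place to 1 library each, as described below. CENH3 stood at 0.942 CPM per kb, and HTB8 was at 0.

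**Figure D2:**
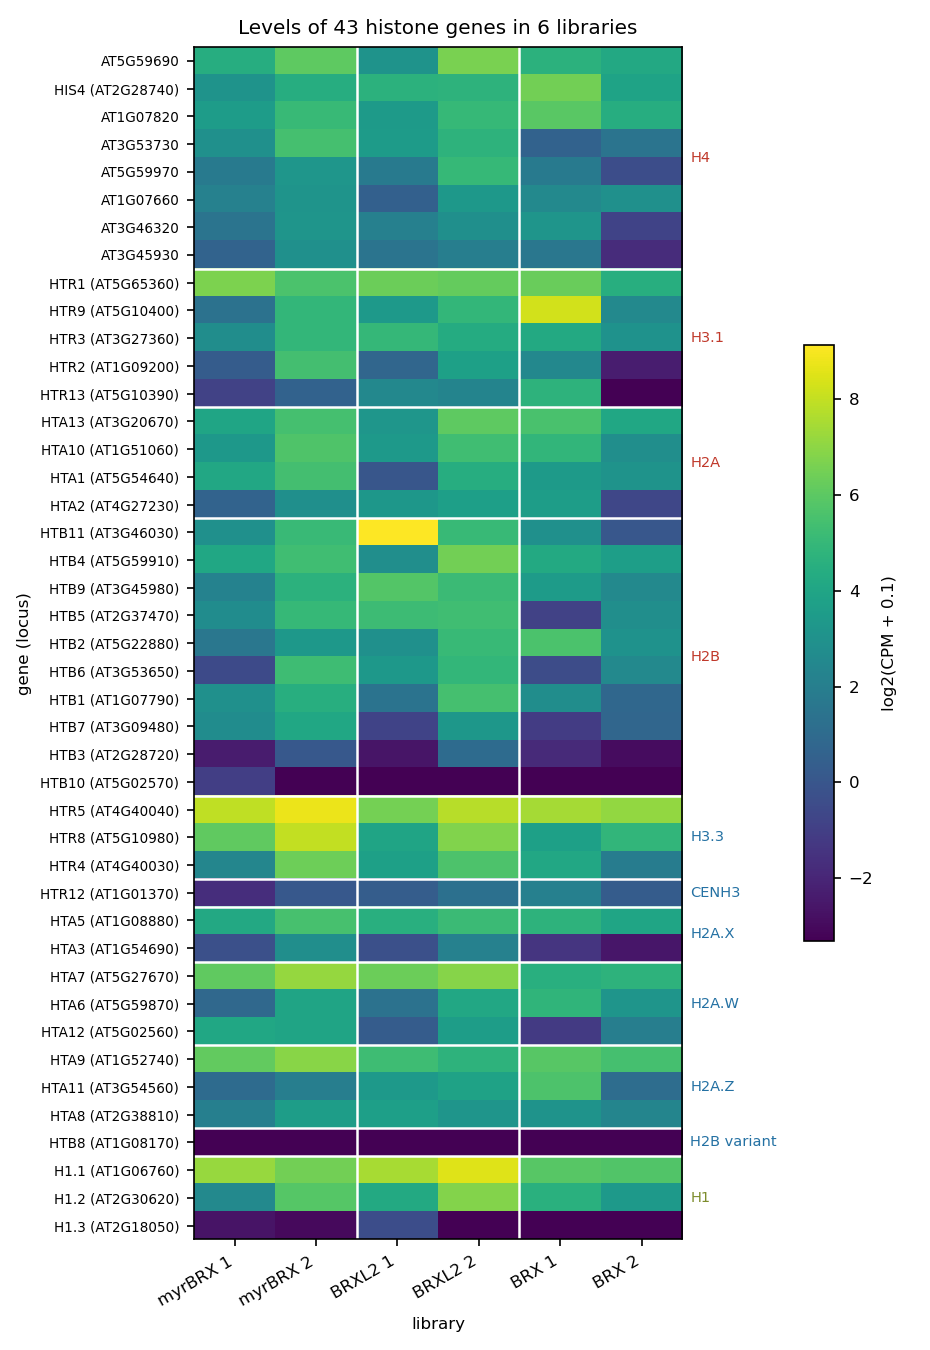
Level of each of the 43 histone genes (rows, by family) in each of the 6 libraries (columns), as log2(CPM + 0.1). HTR5 is bright in all 6 columns, whereas HTB11 is brightest in BRXL2 library 1 and HTR9 in BRX library 1.

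Among H4 genes, AT5G59690 had the highest mean level. It was at 21.7 and 66.0 CPM in myrBRX, 8.31 and 99.0 CPM in BRXL2 and 25.6 and 18.1 CPM in BRX. The BRXL2 libraries enclosed all the other values of this gene, so the lines overlapped. AT3G53730, another H4 gene, was at 7.64 and 44.1 CPM in myrBRX, 11.4 and 26.8 CPM in BRXL2 and 1.40 and 2.71 CPM in BRX. Here both BRX libraries lay below the other 4. The summed H4 level was 61.1 and 200 CPM in myrBRX, 68.3 and 237 CPM in BRXL2 and 200 and 66.1 CPM in BRX, so each line had 1 library at 61.1 to 68.3 CPM and 1 at 199.5 to 237 CPM. The other 6 H4 genes ranged over 0.198 to 90.6 CPM, with HIS4 (90.6) and AT1G07820 (61.1 CPM) highest in BRX library 1.

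HTR1 was the H3.1 gene with the highest mean level. It was at 104 and 48.0 CPM in myrBRX, 79.9 and 72.2 CPM in BRXL2 and 79.2 and 22.5 CPM in BRX, and the lines overlapped. HTR9, which encodes the same kind of H3, was at 2.5 and 29.8 CPM in myrBRX, 10.6 and 30.8 CPM in BRXL2 and 316 and 5.79 CPM in BRX. BRX library 1 thus stood alone, and BRX library 2 was within the range of the other lines. HTR13, whose locus number is next to that of HTR9, was also highest in BRX library 1 with 26.4 CPM, against 0.451 and 1.43 CPM in myrBRX and 5.53 and 4.85 CPM in BRXL2; in BRX library 2 it had 0 counts, which allows up to 0.0992 CPM. The remaining pair, HTR2 and HTR3, ranged over 0.0992 to 43.1 CPM and 6.80 to 31.6 CPM.

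The H2A gene of highest mean level was HTA13, with 15.7 and 44.1 CPM in myrBRX, 9.12 and 66.2 CPM in BRXL2 and 46.7 and 17.0 CPM in BRX. The other 3 H2A genes ranged over 0.529 to 51.7 CPM. HTB11 led the H2B genes. It was at 7.52 and 34.5 CPM in myrBRX, 563 and 33.1 CPM in BRXL2 and 7.45 and 0.959 CPM in BRX. The value of 563 CPM in BRXL2 library 1 came from 26465 counts, and BRXL2 library 2 was within the range of myrBRX. HTB9, which shares more 50-base words with HTB11 than any other counted locus does, was also highest in that library, with 56.4 and 36.4 CPM in BRXL2, against 4.51 and 25.3 CPM in myrBRX and 11.2 and 5.69 CPM in BRX. Of the other H2B genes, HTB10 had 13 counts in myrBRX library 1 and 0 in the other 5 libraries, and HTB3 stayed at or below 1.93 CPM. The other 6 ranged over 0.366 to 90.6 CPM, the top value being HTB4 in BRXL2 library 2.

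Of the variants, HTR5 was the leading gene in all 6 libraries, with 31.7 to 49.8% of the variant sum. It was at 249 and 443 CPM in myrBRX, 93.1 and 226 CPM in BRXL2 and 174 and 139 CPM in BRX. Both myrBRX libraries lay above the other 4. HTR8, also H3.3, was at 67.3 and 258 CPM in myrBRX, 15.6 and 108 CPM in BRXL2 and 13.4 and 29.4 CPM in BRX, so myrBRX and BRX did not overlap. HTR4 encodes H3.3 as well and ranged over 3.60 to 82.7 CPM. CENH3 (HTR12), the centromeric H3, was scarce: 0.211 and 0.990 CPM in myrBRX, 1.19 and 2.33 CPM in BRXL2 and 4.21 and 1.12 CPM in BRX, from 7 to 138 counts per library. Both myrBRX libraries were below the other 4.

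The H2A variants were led by HTA7, HTA9 and HTA5. HTA7 (H2A.W) was at 68.8 and 141 CPM in myrBRX, 81.5 and 116 CPM in BRXL2 and 23.2 and 26.6 CPM in BRX, with both BRX libraries below the rest. HTA9 (H2A.Z) was at 71.5 and 122 CPM in myrBRX, 38.1 and 26.9 CPM in BRXL2 and 59.6 and 43.4 CPM in BRX, and the 3 lines were ordered without overlap, myrBRX highest and BRXL2 lowest. HTA5 (H2A.X) varied least of the 3, at 18.0 and 45.7 CPM in myrBRX, 23.4 and 36.4 CPM in BRXL2 and 26.3 and 15.8 CPM in BRX. HTA6 and HTA12 (H2A.W) ranged over 1.78 to 27.9 and 0.336 to 17.2 CPM, HTA8 and HTA11 (H2A.Z) over 4.03 to 12.8 and 1.93 to 49.95 CPM, and HTA3 (H2A.X) over 0.0661 to 7.03 CPM. The divergent H2B gene HTB8, known from sperm, had 0 counts in all 6 libraries.

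H1.1 held 60.7 to 96.3% of the H1 sum. It was at 150 and 89.8 CPM in myrBRX, 179 and 369 CPM in BRXL2 and 59.7 and 54.2 CPM in BRX, so the 3 lines were again ordered without overlap, BRXL2 highest and BRX lowest. The share of all loci that order the 3 lines without overlap was not counted, so the order of HTA9 and H1.1 is not read further. H1.2 overlapped between the lines, at 5.75 and 58.2 CPM in myrBRX, 19.1 and 115 CPM in BRXL2 and 23.7 and 10.3 CPM in BRX. H1.3, the H1 known from drought stress and guard cells, had 2 and 1 counts in myrBRX, 31 and 0 in BRXL2 and 0 and 0 in BRX.

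The S phase genes were then set against the variants in each library. Summed, the 27 S phase genes were at 274 and 719 CPM in myrBRX, 911 and 839 CPM in BRXL2 and 839 and 179 CPM in BRX. The 13 variant genes summed to 505 and 1147 CPM in myrBRX, 294 and 622 CPM in BRXL2 and 405 and 279 CPM in BRX. The variants exceeded the S phase genes in both myrBRX libraries and in BRX library 2, and the S phase genes exceeded the variants in both BRXL2 libraries and in BRX library 1. The ratio of the 2 sums, which does not depend on scaling, was 0.542 and 0.626 in myrBRX, 3.1 and 1.35 in BRXL2 and 2.07 and 0.640 in BRX. As log2 values these average -0.78 ± 0.15 in myrBRX, 1.03 ± 0.85 in BRXL2 and 0.20 ± 1.2 in BRX (SD, n = 2 each). Neither BRXL2 value overlapped with myrBRX, BRX library 2 lay just above the myrBRX values, and the 2 BRX libraries lay on either side of 0. With 2 libraries against 2 the smallest two-sided p of an exact permutation test is 0.333, so no such comparison of sums can reach 0.05.

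Single genes carried much of these sums. HTB11 made up 61.8% of the S phase sum in BRXL2 library 1, HTR9 37.7% in BRX library 1 and HTR1 37.8% in myrBRX library 1, while the leading gene held 9.19 to 12.6% in the other 3 libraries. Without HTB11 and HTR9 the log2 ratio was -0.94 and -0.81 in myrBRX, 0.20 and 0.32 in BRXL2 and 0.35 and -0.70 in BRX. The sign in each library was the same as with both genes, and the gap between BRXL2 and myrBRX was smaller. Other definitions changed signs. With the mean of log2(CPM + 1) in place of sums, BRXL2 library 1 was at -0.14 and BRX library 1 at -0.17. With H1 among the variants, BRXL2 library 2 was at -0.40. With the most abundant gene of each class left out, myrBRX library 1 was at 0.05 and BRX library 2 at 0.34, and with H2A.X and H2A.W among the S phase genes myrBRX library 2 was at 0.03 and BRX library 2 at 0.06. Under each of these 4 definitions both myrBRX values stayed below both BRXL2 values. Within the H3 family, the log2 ratio of H3.1 to H3.3 was -1.49 and -2.36 in myrBRX, 0.08 and -1.44 in BRXL2 and 1.12 and -2.24 in BRX. For H2A against H2A.Z it was -0.79 and 0.07 in myrBRX, -1.02 and 1.49 in BRXL2 and -0.25 and -0.62 in BRX. For H2A against H2A.W it was -0.97 and -0.25 in myrBRX, -1.5 and -0.05 in BRXL2 and 0.95 and -0.27 in BRX. The H2A family thus did not show the split of the class sums. For H4 against H3.3 the log2 ratio was -2.39 and -1.97 in myrBRX, -0.84 and -0.69 in BRXL2 and -0.04 and -1.38 in BRX. Both myrBRX values lay below all others there.

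**Figure D3:**
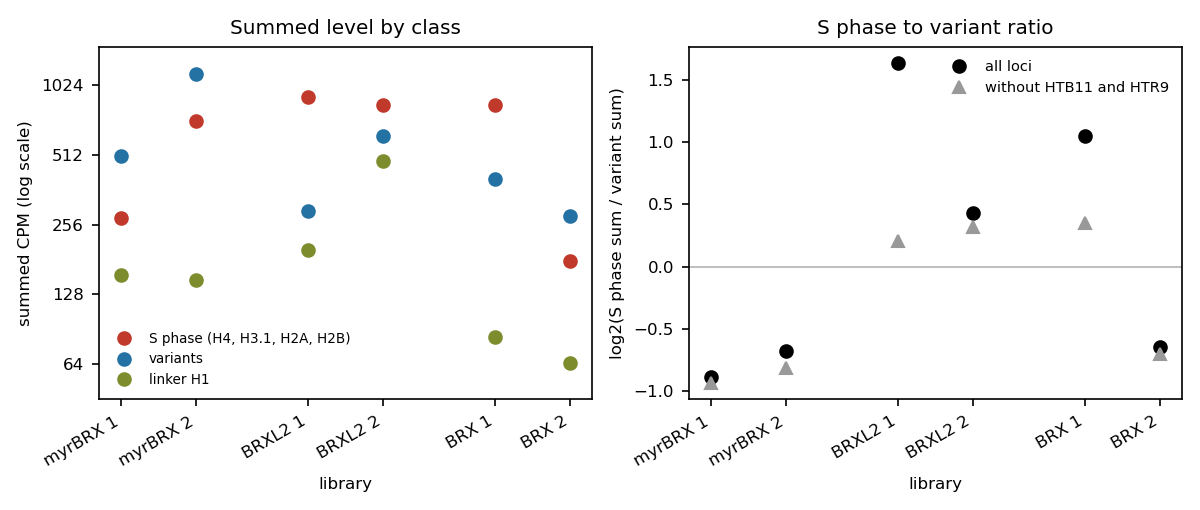
Left, summed CPM (log scale) of the S phase, variant and H1 genes in each library. Right, log2 ratio of the S phase sum to the variant sum per library, with all genes (black) and without HTB11 and HTR9 (grey); both myrBRX libraries and BRX library 2 lie below 0, and both BRXL2 libraries and BRX library 1 lie above it.

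Most histone genes moved together between the 2 libraries of a line. In myrBRX, 25 of 26 S phase genes tested were higher in library 2 than in library 1, HTR1 being the exception, against 47.9% of all loci. In BRXL2, 21 of 26 were higher in library 2, against 48% of all loci. In BRX the direction was the other one, with 21 of 26 higher in library 1, against 45.4% of all loci. The S phase sum of BRXL2 was still higher in library 1, at 911 against 839 CPM. Without HTB11 it was 348 against 806 CPM. The median log2 difference of the S phase genes, library 2 over library 1, on the CPM + 0.1 scale, was 1.69 in myrBRX, 1.57 in BRXL2 and -1.65 in BRX, where the medians of all loci were -0.02, -0.05 and 0.06. The variants went the same ways, with 11 of 12 higher in library 2 of myrBRX, 10 of 12 in library 2 of BRXL2 and 9 of 12 in library 1 of BRX, and medians of 1.45, 1.09 and -0.72. Across the 6 libraries, 11 of 26 S phase genes were lowest in BRX library 2, against 13.1% of all loci. In library 1 of myrBRX and of BRXL2, 6 each were lowest, against 11.1 and 12.2% of all loci, and in BRX library 1 3 were (24.1%). In library 2 of myrBRX and of BRXL2 0 were lowest, against 16.5 and 14.2% of all loci. These genes share their libraries and are not replicates, so the counts describe the libraries and carry no test.

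Values by transcript length stand beside this difference. Histone transcripts are short, with a median exon length of 844.5 bases (644 to 1779) against 1821 bases over all loci tested. Loci of up to 1000 bases had a median log2 difference of library 2 over library 1 of 0.25 in myrBRX, 0.20 in BRXL2 and 0 in BRX. Loci over 2000 bases stood at -0.10, -0.18 and 0.16. The median GC content was 40.9% in the histone loci and 41.5% in all loci. The part of length in the histone differences was not tested.

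**Figure D4:**
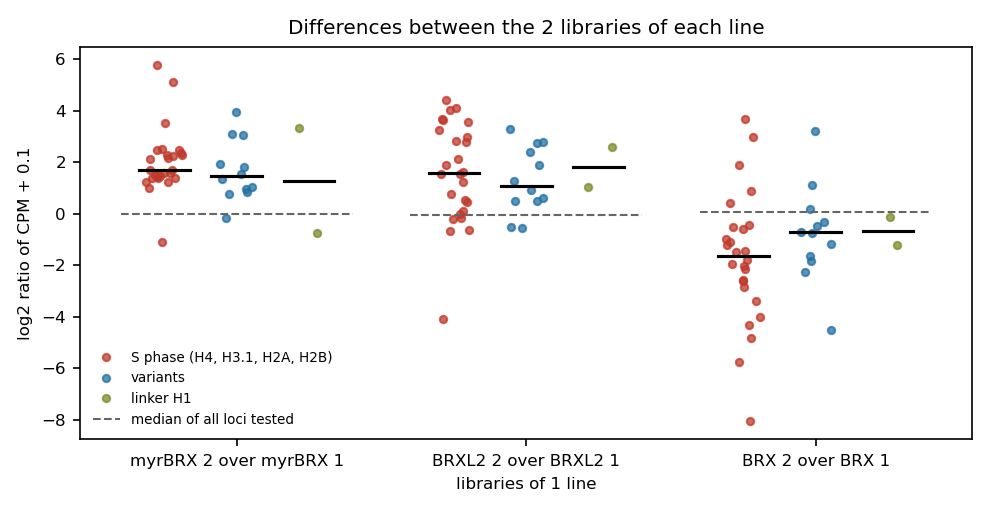
Log2 ratio of CPM + 0.1 between library 2 and library 1 of each line for every histone gene tested; short black bars are medians per class and dashed lines the median of all loci. S phase and variant genes lie mostly above 0 in myrBRX and BRXL2 and mostly below 0 in BRX.

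In the comparison of myrBRX with BRX, 0 of 40 histone genes tested passed the threshold of an adjusted p of 0.05 in edgeR's quasi-likelihood test, and so did 0 of all 18174 loci (0%). At an unadjusted p under 0.05 there were 6 of 40 histone genes (14.2% of all loci), DESeq2 called 2 of 40 (AT3G53730 and HTR8), against 8.22% of all loci, and limma-voom 0, against 0%. The fitted log2 fold change was positive in 18 of 26 S phase genes, with a median of 0.83. It was positive in 9 of 12 variants, with a median of 1.02, beside a median of -0.03 over all loci. Of the 9 H2B genes tested, 8 were positive, with a median of 2.25. Both myrBRX libraries were above both BRX libraries in 6 of 26 S phase and 6 of 12 variant genes (26.7% of all loci), and below in 0 S phase genes and 1 variant, CENH3 (22.4% of all loci). The lowest p values of the higher genes were those of AT3G53730 (H4), with a log2 fold change of 3.65 ± 1.11 (SE) and an adjusted p of 0.231, HTR8 (H3.3) with 2.92 ± 1.08 and 0.283, and HTA7 (H2A.W) with 2.08 ± 0.79 and 0.29. In each, both myrBRX libraries were above both BRX libraries. On the other side stood HTA11 (H2A.Z) at -3.16 ± 1.28 and 0.308, HTR9 (H3.1) at -3.31 ± 1.53 and 0.353, and HTB2 (H2B) at -2.13 ± 1.12 and 0.396. HTA11 had 1.93 and 3.91 CPM in myrBRX, against 49.95 and 2.12 CPM in BRX, and HTB2 had 2.98 and 9.87 CPM in myrBRX, against 48.2 and 8.13 CPM in BRX. The size of all 3 rested on BRX library 1. Without that library the values were 0.47 for HTA11 and 1.49 for HTR9, with the sign turned, and -0.33 for HTB2. The median of the S phase genes was -0.71 without myrBRX library 2, so its sign depended on that library, and that of the variants was 0.12.

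In the comparison of myrBRX with BRXL2, 0 of 40 histone genes passed the threshold (0.0495% of all loci, 9 loci), and 1 had an unadjusted p under 0.05 (12.4% of all loci). DESeq2 called 1 of 40 (HTB11), against 6.32% of all loci, and limma-voom 0, against 0%. S phase genes were more often on the lower side, 17 of 26, with a median of -0.34, and variants more often on the higher side, 8 of 12, with a median of 0.28, beside -0.15 over all loci. The lower side was mainly H2B, with 8 of 9 genes negative and a median of -0.91, and H3.1, with 4 of 5 negative. Of the H4 genes 3 of 8 were negative (median 0.03), and of the H2A genes 2 of 4 (median -0.02). Both myrBRX libraries were below both BRXL2 libraries in 5 of 26 S phase genes and 2 of 12 variants (24.7% of all loci), and above in 0 S phase genes and 3 variants (24.3% of all loci). Those shares are near or under those of all loci. HTB11 had the lowest p, at -3.82 ± 1.40 and an adjusted p of 0.306, and stood at -0.65 without BRXL2 library 1. HTB9 (H2B) was at -1.64 ± 0.95 and 0.502, and HTA11 at -2.08 ± 1.23 and 0.512. The positive side was led by HTA9 (H2A.Z), with 1.57 ± 0.76 and 0.429, then HTR8, with 1.40 ± 1.02 and 0.61, and HTR5, with 1.12 ± 0.84 and 0.621. The class medians turned with 1 library: without BRXL2 library 2 that of the S phase genes was 0.96, without myrBRX library 2 that of the variants was -1.08.

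In the comparison of BRXL2 with BRX, 0 of 40 histone genes passed the threshold (0.0935% of all loci, 17 loci), and 7 had an unadjusted p under 0.05 (8.85% of all loci). DESeq2 called 2 of 40 (HTB11 and AT3G53730), against 3.67% of all loci, and limma-voom 0, against 0%. As in myrBRX against BRX, 8 of 9 H2B genes were positive here. The H2B genes stood highest, with a median log2 fold change of 2.46. Over all S phase genes 20 of 26 were positive, with a median of 0.99, and over the variants 8 of 12, with a median of 0.60, beside 0.03 over all loci. Both BRXL2 libraries were above both BRX libraries in 6 of 26 S phase genes, 4 of them H2B, and in 3 of 12 variants (18.3% of all loci), and below in 0 S phase genes and 1 variant, HTA9 (14.9% of all loci). HTB11 stood at 6.15 ± 1.56 on the log2 scale (adjusted p of 0.347), AT3G53730 at 3.21 ± 1.09 (0.432) and H1.1 at 2.27 ± 0.83 (0.483). HTB11 passed the threshold when BRXL2 library 2 or either myrBRX library was left out (adjusted p of 0.00128 to 0.0147), settings under which 0.454 to 1.13% of all loci passed. Without BRXL2 library 2 its line is left with the library at 563 CPM alone, whose spread is then assumed to be that of the other lines. Without BRXL2 library 1 it stood at 2.98 (0.517). The negative side held HTR9 at -2.96 ± 1.51 (0.596), HIS4 (H4) at -1.02 ± 0.94 (0.822) and AT1G07820 (H4) at -0.93 ± 0.91 (0.834), each with its highest value in BRX library 1. Without BRX library 1 these 3 turned positive, and without BRXL2 library 2 the medians turned to -0.75 for S phase genes and -0.45 for variants.

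A test for any difference among the 3 lines in the same fit also called 0 of 40 histone genes (0.226% of all loci, 41 loci). The lowest adjusted p was 0.145, of HTB11. At an unadjusted p under 0.05 there were 5 of 40 genes. The share of all loci at that p was not counted for this test, so the number is not read further. The 3 comparisons share libraries pairwise, so they are not independent of each other.

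**Figure D5:**
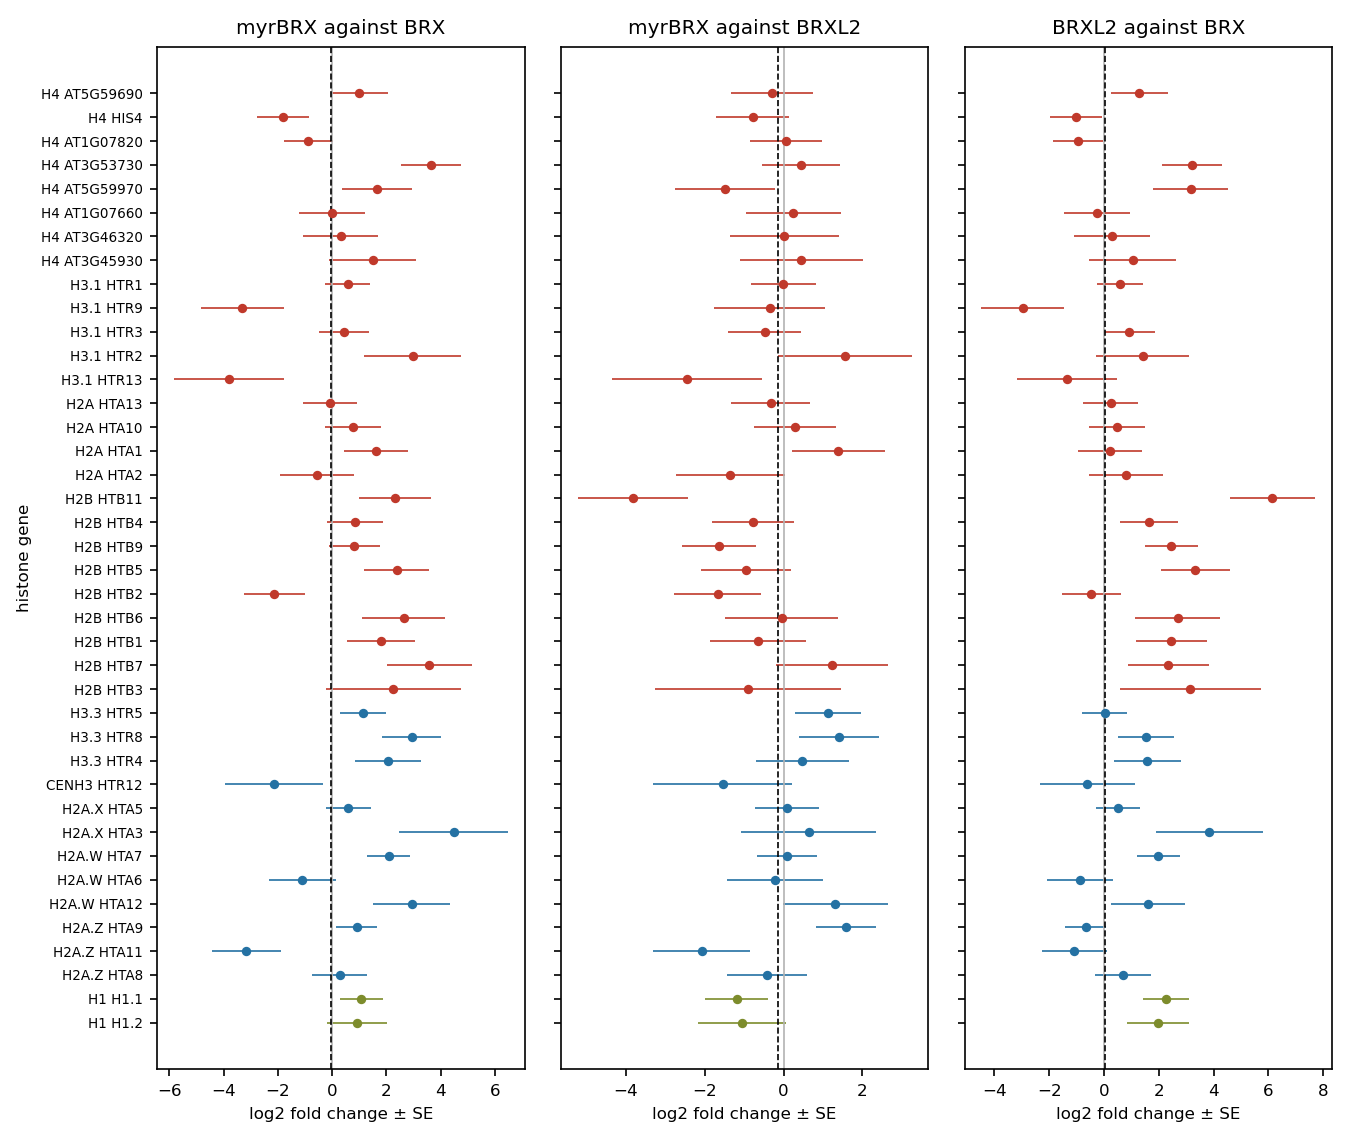
Log2 fold change ± SE of the 40 histone genes tested in the 3 comparisons, S phase genes in red, variants in blue and H1 in green; the dashed line is the median of all loci. No gene passed the threshold, and the widest fold change is that of HTB11 in BRXL2 against BRX.

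Genes that act on histones were read beside them. Of 23 histone chaperones and depositors, among them subunits of CAF-1, which deposits H3.1 behind the replication fork, and HIRA, which deposits H3.3, 0 passed the threshold in any comparison. Their summed level was 641 and 625 CPM in myrBRX, 1312 and 636 CPM in BRXL2 and 1042 and 598 CPM in BRX. SPT16, a subunit of the chaperone FACT, had 74.0 and 57.1 CPM in myrBRX, 597 and 84.99 CPM in BRXL2 and 65.1 and 64.4 CPM in BRX, and a log2 fold change of 2.40 ± 0.97 (adjusted p of 0.519) in BRXL2 against BRX and -2.38 ± 0.97 (0.351) in myrBRX against BRXL2. Like HTB11 it was high in BRXL2 library 1 alone. FAS1, the large CAF-1 subunit, was at 15.2 and 5.42 CPM in myrBRX, 78.2 and 17.7 CPM in BRXL2 and 198 and 0.628 CPM in BRX, with -3.27 ± 1.65 (0.382) in myrBRX against BRX. NAP1;1, a chaperone of H2A and H2B, had -1.51 (0.407) in myrBRX against BRX and -1.45 (0.634) in BRXL2 against BRX, and ATRX, which is known to act with H3.3, -1.56 (0.469) in myrBRX against BRXL2.

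The replication genes, 16 in number and including PCNA and the MCM helicase, gave 0 calls in any comparison. They summed to 296 and 265 CPM in myrBRX, 513 and 217 CPM in BRXL2 and 835 and 91.9 CPM in BRX. In BRX they went with the S phase histones, 15 of 16 being higher in library 1 (45.4% of all loci). In BRXL2 they did not: 14 of 16 were higher in library 1 (51.1% of all loci), where 21 of 26 S phase histones were lower. Nor did they in myrBRX, where 11 of 16 were higher in library 1 (50.7% of all loci) and 25 of 26 S phase histones were lower there. These are counts of genes. By sums, both sets were higher in library 1 of BRXL2, with the S phase histones at 911 and 839 CPM. Without HTB11 they were at 348 and 806 CPM. The G2/M genes described below were higher in library 1 in 15, 17 and 16 of 23 in BRX, BRXL2 and myrBRX. Between lines, the lowest p values were those of CDC45, a helicase factor, at -4.48 ± 1.52 (adjusted p of 0.262) and PCNA2 at 2.35 ± 0.91 (0.294) in myrBRX against BRX. CDC45 was at 0.722 and 0.677 CPM in myrBRX, 17.5 and 5.62 CPM in BRXL2 and 30.5 and 0.860 CPM in BRX, so against BRX its size rested on BRX library 1. CDC45 was also lowest in p in myrBRX against BRXL2, at -4.04 ± 1.49 (0.31), before CDT1A at -1.07 ± 0.85 (0.64). In BRXL2 against BRX the lowest was CDC6, at 5.33 ± 2.06 (0.512), before PCNA2 at 1.80 ± 0.89 (0.586). CDC6 was at 0.0610 and 0.0661 CPM in BRX, below the level of 3 counts, so the size of its fold change is uncertain.

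The 23 G2/M genes, such as B-type cyclins, which act after replication, had 0 calls in any comparison, with 19 of 23 at an unadjusted p under 0.05 in myrBRX against BRX (14.2% of all loci), 16 in myrBRX against BRXL2 (12.4%) and 3 in BRXL2 against BRX (8.85%). In 22 of 23 both myrBRX values were below both BRX values (22.4% of all loci), and in 20 of 23 below both BRXL2 values (24.7%), which was so in 0 and 5 of 26 S phase histones. Their sum was 267 and 231 CPM in myrBRX, 2130 and 965 CPM in BRXL2 and 4766 and 2525 CPM in BRX, of which AUR2, an Aurora kinase, held 1595 CPM in BRX library 1. CDC20.2, an activator of the anaphase-promoting complex, at -6.03 ± 0.95 (adjusted p of 0.129), and the A-type cyclin CYCA1;1, at -5.62 ± 1.04 (0.2), were lowest in p in myrBRX against BRX. In myrBRX against BRXL2 these were the B-type cyclins CYCB1;2 at -5.47 ± 1.17 (0.176) and CYCB2;1 at -4.85 ± 1.19 (0.21), and in BRXL2 against BRX AUR2 at -4.82 ± 1.33 (0.37) and CDC20.2 at -2.93 ± 0.82 (0.376). AUR2 was at 28.4 and 30.6 CPM in BRXL2, against 1595 and 67.7 CPM in BRX, so BRX library 1 set the size.

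Markers of cell types also differed between libraries. All 10 stomatal lineage markers were tested, and they summed to 646 and 398 CPM in myrBRX, 889 and 724 CPM in BRXL2 and 1934 and 816 CPM in BRX, with MUTE at or near 0 in myrBRX and BRX (0 to 0.763 CPM). The 6 epidermal markers summed to 927 and 1731, 1413 and 1041, and 6278 and 1970 CPM in the same order of lines, and the 6 mesophyll and photosynthesis markers to 254 and 279, 754 and 583, and 939 and 367 CPM. The 9 guard cell markers summed to 977 and 455, 636 and 181, and 114 and 158 CPM. The myrosinase TGG1 alone held 891 and 385, 490 and 93.6, and 82.5 and 115 CPM of these sums. HT1 was at 0 in all BRXL2 and BRX libraries, and TGG2 was lower in myrBRX than in BRXL2 (log2 fold change of -9.33 ± 1.29, adjusted p of 0.0365). TGG2 was at 0.0301 and 0.0781 CPM in myrBRX, at or below the level of 3 counts, so the size of its fold change is uncertain. The 6 phloem markers summed to 5.15 and 8.75, 780 and 354, and 13.9 and 5.03 CPM, with APL at 0 in both BRX libraries. Of these APL and SEOa rose in BRXL2 against BRX (adjusted p of 0.0104 and 0.02), and APL, SEOa and SEOR1 fell in myrBRX against BRXL2 (0.0292, 0.0315 and 0.0472). SUC2, the sucrose carrier of companion cells, was not higher in BRXL2, with 2.86 and 8.13 CPM in myrBRX, 1.02 and 3.08 CPM in BRXL2 and 10.07 and 2.08 CPM in BRX. The part of these phloem transcripts in the histone values was not tested. Between the libraries of a line, mesophyll markers were higher in library 2 of myrBRX in 4 of 6 (47.9% of all loci), in library 2 of BRXL2 in 4 of 6 (48%) and in library 1 of BRX in 4 of 6 (45.4%), although their sum was higher in library 1 of BRXL2. Stomatal lineage markers were higher in library 2 of myrBRX in 5 of 10, in library 2 of BRXL2 in 6 of 10 and in library 1 of BRX in 9 of 10. In the same order, epidermal markers were higher in 4, 3 and 4 of 6. Guard cell markers were so in 4, 3 and 2 of 9, and phloem markers in 1, 3 and 3 of 6. The part of these markers in the histone values was not tested either.

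Several histone genes share sequence, and the sources used here do not say how reads that fit more than 1 place were counted. Of all 50-base words in the exons, HTB10 shared 100% with HTA12, whose transcript overlaps it, and HTA12 shared 31.4% in turn. HTR3 shared 35.6% and HTA3 27.9%, mainly with overlapping genes, and the H4 pairs AT3G45930 with AT3G46320 and AT1G07660 with AT1G07820 shared 18.4 to 27.9%. HTA13 shared 11.1%, with HTA10 and an overlapping gene, and AT5G59690 shared 8.48%, with AT5G59970. Values of these loci are uncertain to that degree. HTB11 shared 1.86%, HTB9 1.92% and HTR9 1.36% with other counted loci, and HTR1, HTR5, HTR8, HTA7, HTA9, H1.1 and AT3G53730 shared 0.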

How the data were processed

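The authors deposited 1 table of raw counts for each library, by TAIR10 locus and without normalisation, as the values themselves show. Bowtie2 and TAIR10 are named in the submitters' processing notes. Per the labels' protocols, libraries were made from 20 ng of amplified RNA (Ovation RNA-Seq System V2, integrity number above 8). The sources used here name no counting program or strand setting, so antisense reads could be included.

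Counts were fitted with edgeR 4.0.16 (R 4.3.3). Of all loci, 18174 passed filterByExpr at a minimum of 10 counts. The quasi-likelihood fit (glmQLFit, glmQLFTest, two-sided, TMM factors) held 1 coefficient per line over all 6 libraries, with 3 residual degrees of freedom and a common dispersion of 0.781. Benjamini-Hochberg adjustment was over all loci tested. The script was tested on simulated data with a spread far below that of these libraries. That test does not show what changes would be recovered at their spread. HTB10, HTB8 and H1.3 did not pass the filter, which left 26 S phase, 12 variant and 2 H1 genes. DESeq2 1.42.0 and limma 3.58.1 (voom) were alternatives. Floors cover counting error only, since amplified reads carry no molecular identifiers here.

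Exon lengths, shared words and promoters came from RefSeq TAIR10.1, to which 32835 of 33602 loci and 43 of 43 histone genes matched by locus name. Full statistics are given for genes past the threshold and for the 3 of lowest p in each direction. Values per library are given for the gene of highest mean CPM in each family and for CENH3, HTB8 and H1.3. Outside that rule they are also given for AT3G53730, HTR8, HTR9, HTA11, HTB2, SPT16 and FAS1. In the chaperone, replication and G2/M lists the 2 genes of lowest p are named, and in the marker lists, for brevity, only those past the threshold. HTR13, HTB9, HTB3, H1.2, HTR2, HTR3, MUTE, HT1, TGG1, SUC2 and the values of AUR2, CDC45, CDC6 and TGG2 by library were added after their values were seen. The members, classes and lists were chosen with earlier results of these data known.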

Additional observations from a re-analysis of the deposited data

How the results depend on the processing

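The calls and class values were recomputed with other scaling factors, filters, tools and sets of libraries. The count of histone genes called, 0 in each comparison, became 1 in myrBRX against BRXL2 without the filter on low counts (HTB11) and 1 with DESeq2 (HTB11), 2 in myrBRX against BRX without the filter (AT3G53730 and HTR9) and 2 with DESeq2 (AT3G53730 and HTR8), and 1 in BRXL2 against BRX without the filter (HTB11) and 2 with DESeq2 (HTB11 and AT3G53730). Both alternatives also called more of all loci, 1.79 to 3.21% without the filter and 3.67 to 8.22% with DESeq2. Leaving out 1 library at a time gave 0 calls in both myrBRX comparisons and 0 to 1 in BRXL2 against BRX, where HTB11 passed without BRXL2 library 2, without myrBRX library 1 or without myrBRX library 2 (adjusted p of 0.0147, 0.00616 and 0.00128 in edgeR's test, with 0.454, 0.75 and 1.13% of all loci called); a line left with 1 library is assumed to vary like the others. With limma-voom 0 were called. At an unadjusted p under 0.05 it gave 4, 2 and 5 in myrBRX against BRX, myrBRX against BRXL2 and BRXL2 against BRX. The share of all loci at that p was not counted for limma-voom, so those numbers are not read further. Over the libraries left out, the median log2 fold change of the S phase genes ranged over -0.71 to 1.82, -1.66 to 0.96 and -0.75 to 1.91 in these 3 comparisons, and that of the variants over 0.12 to 1.38, -1.08 to 1.54 and -0.45 to 1.00. The difference in log2 ratio of S phase to variant sums was -0.98, -1.81 and 0.83. With the mean of log2(CPM + 1) in place of sums it was -0.10, -0.57 and 0.47, and with H1 among the variants -0.98, -1.30 and 0.33. With the most abundant gene of each class left out it was -0.91 in myrBRX against BRXL2 and -0.19 in BRXL2 against BRX. With H2A.X, H2A.W and CENH3 left out, an alternative chosen after seeing the data, it was -0.98, -2.08 and 1.1. Single genes changed sign without BRX library 1 only: HTA11 to 0.47 and HTR9 to 1.49 in myrBRX against BRX, and HTR9 to 1.84, HIS4 to 0.82 and AT1G07820 to 0.0042 in BRXL2 against BRX. Over all libraries left out, their lowest values were -4.09 and -6.05 in myrBRX against BRX, and -3.93, -1.80 and -1.90 in BRXL2 against BRX. Without scaling factors the median of all loci shifted to -0.25, -0.45 and 0.11, and the class medians are read against that shift. Same-numbered libraries deviated together at r = 0.128 in myrBRX and BRXL2, 0.0672 in myrBRX and BRX and 0.172 in BRXL2 and BRX. Whether the numbers pair the libraries was not tested. With the replicate number as a block, 0 histone genes were called in each comparison (lowest adjusted p of 0.119, 0.394 and 0.112). The cause of these changes was not tested. The effect of depth on the calls was not tested.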
